A study of Mus musculus with 24 samples.

Results

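Constitutive promoter regions are the promoters that carried an open-chromatin peak in every list of the series, in both neuron classes and at all 6 ages. They were chosen by peak presence alone, which is therefore given as a description with no test. Peaks on chromosomes 1 to 19, X and Y sharing 1 bp or more across the 12 lists were joined, which gave 85867 union regions. Kept were those with a peak in all 12 lists that lay within 1 kb of an annotated transcription start site (TSS). The rule kept 2579 regions, 3% of all union regions and 18.1% of the 14278 promoter regions. They held 31438 of the 292934 peaks used (10.7%). The comparison sets were the 11699 promoter regions present in 1 to 11 lists and the 596 regions present in all 12 lists but farther than 1 kb from any TSS, called distal here.

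The assay was ATAC-seq, where a transposase cuts accessible DNA and tags the ends for sequencing, on tdTomato-positive neurons sorted from somatosensory and motor cortex of mice labelled C57BL/6, whose background the study's methods describe as mixed C57BL/6J. The line Cux2-CreERT2:Ai14 gave Cux2 CPNs, the callosal projection neurons of the upper cortical layers, and Tle4-2A-CreERT2:Ai14 mice gave Tle4 CThPNs, the corticothalamic projection neurons of layer 6. In both lines 4-HydroxyTamoxifen, given to the pregnant mother, let the inducible Cre switch on the red Ai14 reporter, and every group carried Ai14, its own driver and this treatment. Each class was collected at E18.5, P1, P3 and P7 (early) and at P21 and P48 (late), with 2 replicate libraries per age, and animals of both sexes were used. By the study's methods, tissue was dissociated with more concentrated papain at P21 and P48 than at the early ages. Stage and this step cannot be told apart. The label follows the driver gene and not a marker of the finished neuron, and the Cux2 driver is known from the study's methods to mark some interneurons too. The authors checked this by single-cell sequencing of labelled cells and judged its effect on their results minimal. The authors called each list on both replicates together, so the 12 lists hold no value per replicate, and the ages are the only repeats in every test below.

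A promoter is the stretch around the TSS where RNA polymerase II and general factors assemble. Many promoters of genes used in all cells lie in CpG islands, stretches rich in G, C and the CpG dinucleotide that stay free of nucleosomes and DNA methylation. Short motifs in them recruit activators. The CCAAT box is bound by the trimer NF-Y, the GC box by SP1 and its relatives, the ETS site by ETS factors such as GABPA, and the NRF1 site by NRF1, a regulator of mitochondrial and growth genes. E-boxes of the CAGATG type are bound by the neuronal NEUROD factors, and the AP-1 site by FOS and JUN dimers after activity.

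The upstream sequences of 9 members are printed as examples, and the first shows what one of the most enriched members looked like. Each line gives the 200 bases before the TSS in the direction of transcription, 5′ to 3′, from assembly NCBIM37 (mm9). Capitals mark matches on either strand to the CCAAT box (CCAAT, or ATTGG on the other strand), the GC box (GGGCGG or CCGCCC), the ETS site (CCGGAAGT) or the NRF1 site (GCATGCGC). Mcm3 (chr1:20810360-20810559, minus strand), the promoter of a subunit of the replicative helicase, held 3 CCAAT boxes, which began 151, 106 and 66 bases before the TSS.
Mcm3: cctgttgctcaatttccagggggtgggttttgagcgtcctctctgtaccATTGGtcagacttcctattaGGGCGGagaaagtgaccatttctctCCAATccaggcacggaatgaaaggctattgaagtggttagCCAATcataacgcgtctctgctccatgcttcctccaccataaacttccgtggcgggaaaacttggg

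The next set belongs to members whose relative enrichment differed between stages. Members higher at the early ages are shown by Phf13 (chr4:151370368-151370567, minus strand), Sertad1 (chr7:28271729-28271928, plus strand) and Osbpl2 (chr2:179853811-179854010, plus strand).
Phf13: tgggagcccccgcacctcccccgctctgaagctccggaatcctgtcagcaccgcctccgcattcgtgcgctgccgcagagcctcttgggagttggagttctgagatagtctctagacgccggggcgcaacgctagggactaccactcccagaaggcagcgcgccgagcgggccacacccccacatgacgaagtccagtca
Sertad1: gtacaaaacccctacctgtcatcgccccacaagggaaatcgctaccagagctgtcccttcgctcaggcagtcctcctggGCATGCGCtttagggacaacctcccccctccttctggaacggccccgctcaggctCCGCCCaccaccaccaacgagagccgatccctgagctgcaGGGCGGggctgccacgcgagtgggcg
Osbpl2: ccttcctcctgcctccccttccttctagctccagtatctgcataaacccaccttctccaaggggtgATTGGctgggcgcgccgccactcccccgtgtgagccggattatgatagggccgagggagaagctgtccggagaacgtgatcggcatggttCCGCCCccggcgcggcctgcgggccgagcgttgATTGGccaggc
Members higher at the late ages are shown by Abca7 (chr10:79459039-79459238, plus strand), Tmem123 (chr9:7763841-7764040, plus strand) and Ddx17 (chr15:79377172-79377371, minus strand).
Abca7: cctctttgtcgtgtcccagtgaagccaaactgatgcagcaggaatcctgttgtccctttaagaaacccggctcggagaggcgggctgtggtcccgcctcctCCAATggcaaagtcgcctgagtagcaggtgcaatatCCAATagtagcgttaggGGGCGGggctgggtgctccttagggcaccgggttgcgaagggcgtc
Tmem123: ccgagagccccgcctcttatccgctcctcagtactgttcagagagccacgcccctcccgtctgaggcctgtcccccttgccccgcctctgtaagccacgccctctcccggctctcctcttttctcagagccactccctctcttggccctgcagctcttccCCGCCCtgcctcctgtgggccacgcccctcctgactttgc
Ddx17: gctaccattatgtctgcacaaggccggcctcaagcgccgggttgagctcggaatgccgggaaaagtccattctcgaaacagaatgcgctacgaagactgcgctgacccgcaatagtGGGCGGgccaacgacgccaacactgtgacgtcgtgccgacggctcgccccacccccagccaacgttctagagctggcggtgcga
Phf13 held none of the marked motifs in these 200 bases. Abca7 and Osbpl2 each held 2 CCAAT boxes although they differed between stages in opposite directions.

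The last pair differed between the neuron classes. Rps6kl1 (chr12:86492215-86492414, minus strand) was higher in Cux2 lists and Heatr2 (chr5:139625977-139626176, plus strand) in Tle4 lists. Rps6kl1 held 2 CCAAT boxes and only 5 CpG dinucleotides, and Heatr2 held 14 CpG dinucleotides and the single ETS site of the 9 sequences.
Rps6kl1: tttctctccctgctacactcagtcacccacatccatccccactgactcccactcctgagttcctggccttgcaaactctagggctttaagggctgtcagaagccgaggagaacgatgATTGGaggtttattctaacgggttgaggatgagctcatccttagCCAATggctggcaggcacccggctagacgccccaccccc
Heatr2: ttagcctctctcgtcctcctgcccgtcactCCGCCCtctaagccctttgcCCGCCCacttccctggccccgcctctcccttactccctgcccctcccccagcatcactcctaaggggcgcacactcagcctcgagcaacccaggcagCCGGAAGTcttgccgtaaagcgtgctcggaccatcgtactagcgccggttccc

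Most members lay over a start site. In all, 2517 (97.6%) covered an annotated TSS, and 2390 (92.7%) were built from exactly 1 peak in every list. Their median width was 1120 bp (quartiles 940 and 1313, range 305 to 2446), against 836 bp in the other promoter regions. The median distance from summit to nearest TSS was 74 bp (quartiles 39 and 124), against 96 bp in the other promoter regions. Summits sat at nearly the same place in all lists, with a median spread from the lowest to the highest summit of 81 bp, and 198 members (7.68%) had a spread over 250 bp. A protein-coding TSS lay within 1 kb of 2498 members (96.9%), against 81.8% of the other promoter regions. In 401 members (15.5%) coding start sites on both strands lay within 1 kb, as in divergent gene pairs, against 6.75% of all other promoter regions and 13% of those in 11 lists. The X chromosome held 69 members (2.68%) and the Y chromosome 0.

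Since the rule asked for a peak in every list, the least populated list set the limit. The lists ranged from 6538 peaks (Tle4 at P21) to 45644 (Cux2 at P48), and members made up 39.6% of the former and 5.76% of the latter. Of 1036 promoter regions present in 11 lists, 669 lacked a peak only at Tle4 P21, 191 only at Tle4 P48 and 65 only at Cux2 P21. Without the Tle4 P21 list 3248 promoter regions were present in the remaining 11. With every list cut to the length of the shortest, only 1149 members were left, and with one common limit on the −log10 p, 1938. At the edge of the distance rule, members near Gm17227, Sin3a and Mamstr lay 999, 944 and 932 bp from a TSS, and regions near Gm14862 and n-R5s98 fell just outside at 1041 and 1049 bp. At the edge of presence, Dgkb, Hps3 and Cetn3 entered with a peak at the lowest −log10 p of a list. Rufy1, Atg14 and Nip7 were left out by the missing Tle4 P21 peak alone, despite mean percentiles of 95.9, 95.8 and 95.6 in the other lists.

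Fold enrichment, the ratio of reads at the summit over local background that the authors' peak caller wrote, was high at members, as the choice of members favours. Member values ran from 4.36 to 31.7. Ranked within each list, the median member stood at a mean percentile of 82.4, against 39.2 for other promoter regions and 71 for distal constitutive regions. In every list 268 members ranked above the 90th percentile. The median coefficient of variation of a member's fold enrichment over the 12 lists was 17.6%.

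The member with the highest mean percentile was Cdc25c on chromosome 18, the promoter of a mitotic phosphatase. Its fold enrichment was 27.9, 30.3, 26.2, 25.5, 25.8 and 26.9 in the Cux2 lists from E18.5 to P48 and 27.5, 26, 22.6, 26.2, 20.6 and 22.6 in the Tle4 lists. Oip5, a centromere gene that shares its promoter with the mitotic gene Nusap1, ranged from 21.3 (Tle4 P3) to 28 (Tle4 P1). Mcm3 ranged from 17.4 (Tle4 P48) to 31.7 (Cux2 P1), the highest value of any member. Stard9, a mitotic kinesin, Elac2, which trims tRNA 3′ ends, and BC002059, a zinc finger gene, were also among the strongest, together with Gm10222. None of these 7 differed by stage at an adjusted p under 0.05, with limma differences (late minus early, log2) from −0.13 ± 0.054 (SE) at Mcm3 to 0.088 ± 0.053 at Gm10222.

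Gm10222 (chr1:24619798-24620114) needs a separate reading. Of 11 words of 50 bases taken from it, 9 also occur in the mitochondrial chromosome of the reference, so reads of mitochondrial DNA could be placed there. One other member, also next to Gm10222, holds mitochondrial words. Across the members, 2336 (90.6%) had no 50-base word that occurs elsewhere in the genome, and 5 (0.194%) had over 50% repeated words. BC002059 had 8 repeated words of 27. How reads with several matches were placed at these regions was not tested.

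Most members had CpG-rich sequence. Over the whole region, median GC content was 57.5% and the median CpG observed/expected ratio 0.729. In windows of 300 bp around the summit these medians were 61.3% and 0.791. Over the whole region, 1974 members (76.5%) exceeded both 50% GC and a ratio of 0.6. Among other promoter regions 51.3% did, among promoter regions seen in a single list 31.1%, and among distal constitutive regions 8.89%. Promoter regions seen in 11 lists were close to the members at 73.7%. The remaining 605 members lay under a limit.

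Most members held a CCAAT box. In windows of 300 bp around the summit, 1775 members (68.8%) held the letters CCAAT on either strand, against 33.4% of other promoter regions, 45.6% of distal constitutive regions and 33.2% of windows of the same length at 45969 coding start sites. More than 1 CCAAT box was found in 1031 members (40%), against 8.98% of other promoter regions. The shares were alike at high and low CpG content. Of members over both CpG limits 69.9% held a CCAAT box, against 32.5% of other such promoter regions, and under a limit the shares were 65.3% and 34.3%.

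The share of promoters with a CCAAT box changed little up to 7 lists (31.3%) and rose from 8 lists on. It was 29.5% for promoter regions present in 1 list, 29.8% in 6 lists, 36.4% in 8, 42.9% in 10, 48.8% in 11 and 68.8% in all 12. Among members, split into 4 equal groups by mean percentile of enrichment, it was 59.8% in the lowest, 64.7% and 68.5% in the next and 82.3% in the highest. The GC box share was 32.7% in 1 list, 55.4% in 6, 66.7% in 11 and 72.5% in 12. These are descriptions of letters in a window, with no test over regions.

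**Figure D1:**
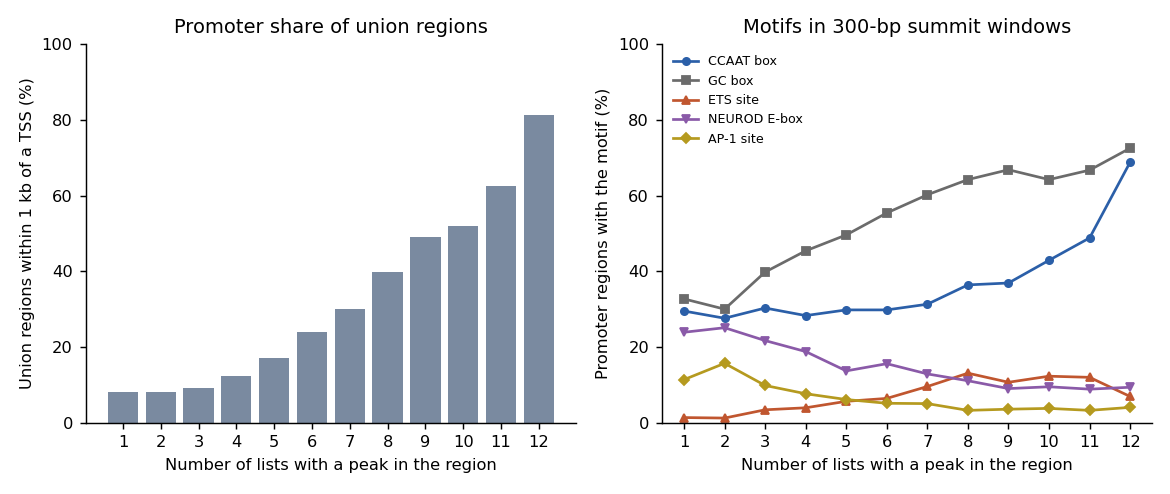
Left, share of union regions within 1 kb of a TSS (percent) against the number of lists with a peak in the region, from 8.11% in 1 list to 81.2% in 12. Right, share of promoter regions (percent) whose 300-bp summit window held each motif. The CCAAT box stays near 30% up to 7 lists and reaches 68.8% in 12, whereas the ETS site peaks at 13.1% in 8 lists.

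Other motifs took different courses. The ETS site rose from 1.38% in 1 list to 13.1% in 8 and 12% in 11, and stood at 6.94% in members. The NRF1 site was held by 3.99% of members and 6.76% of promoter regions in 11 lists. The ZNF143 site ACTACAATT was rare but was found in 53 members (2.06%), against 0.462% of other promoter regions, 1.25% of those in 11 lists and 0.348% of coding start sites. The YY1 site AAGATGGC was held by 6.55% of members, 4.09% of other promoter regions and 6.85% of those in 11 lists. The NEUROD E-box CAGATG and the AP-1 site TGANTCA were less common in members (9.38% and 4.07%) than in other promoter regions (17% and 7.92%), as was the letter run TATAAA of the TATA box (4.92% and 8.37%). Promoter regions in 11 lists were close to the members in all 3, at 8.88%, 3.28% and 5.12%. The cAMP response element TGACGTCA (3.88% and 3.28%) and the E-box CACGTG (8.61% and 9.8%) were held by like shares of both.

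CCAAT boxes upstream of members were most frequent 41 to 80 bases before the TSS. In the 200 bases upstream of the TSS, 1492 members (57.9%) held at least 1, and the 2666 CCAAT boxes found there had a median position of −80 (quartiles −123 and −48). The bin from −60 to −41 held 417 (15.6%), the bin from −80 to −61 held 401 and the bin from −200 to −181 held 148 (5.55%). The boxes of Mcm3 printed above fell at 66 to 151 bases upstream.

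**Figure D2:**
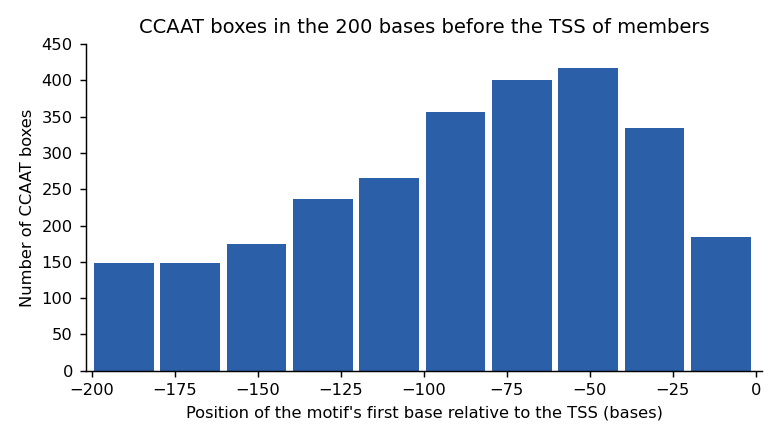
Number of CCAAT boxes (either strand) in the 200 bases upstream of the TSS of the 2579 members, in bins of 20 bases by the position of the motif's first base. Counts rise from 148 in the bin farthest from the TSS to 417 at −60 to −41 and fall to 184 next to the TSS.

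Gene lists were compared with the share over all coding genes. Of 22219 protein-coding genes in the annotation, 2894 (13%) had a start site within 1 kb of a member. The share was 50% for cytosolic aminoacyl-tRNA synthetases (10 of 20), which load amino acids onto tRNA, 40.9% for heat shock chaperones (9 of 22), 38.5% for proteasome subunits (15 of 39), 35.4% for cytosolic ribosomal proteins (29 of 82) and 33.3% for Mediator subunits (10 of 30). It was 27.3% for spliceosomal Sm and SR proteins (6 of 22), 27% for respiratory chain complex I (10 of 37), 25% for RNA polymerase II (3 of 12), 20% for ATP synthase (3 of 15) and 19% for translation initiation factors (11 of 58). Mediator promoters stood highest within this set, with a median mean percentile of 94.9, led by Med21 at 99. The median was 91.6 for the 3 ATP synthase promoters and 91.3 for the synthetases, led by Aars at 98.9. The ribosomal protein set was led by Rplp0 at 98.1 and the proteasome set by Psma5 at 96.7. Ribosomal protein genes have many processed copies in the genome, and how that touched their read placement was not tested.

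Lists of regulated and neuronal genes gave shares from 0 to 18.2%. Immediate early genes, induced by activity, had 4 of 22 (Jun, Egr1, Egr4 and Ier5, 18.2%), core circadian clock genes 3 of 17 (Cry1, Cry2 and Nr1d2, 17.6%) and synaptic vesicle and release proteins 3 of 20 (Syt1, Vamp1 and Rab3a, 15%). Of 21 glutamate receptor subunits only Grm3 did (4.76%). No Hox gene (0 of 39) and no olfactory receptor (0 of 1087) had a constitutive promoter. Fos had a promoter peak in all 12 lists, but in different union regions, and so is no member.

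No cell-type marker was a member. The 5 pyramidal neuron markers had 0, and Neurod6 came nearest with a promoter peak in 11 lists. The 6 interneuron markers had 0 as well. Their promoter peaks lay in the Cux2 lists of E18.5, P1 and P3 alone, where Dlx5 had 3 of them, and Gad1 had a promoter peak in none. Among the markers of astrocytes (0 of 4), oligodendrocyte lineage (0 of 5), microglia (0 of 4) and endothelium (0 of 3), no gene had a promoter peak in more than 1 list. The glial and endothelial markers were thus close to 0 in all lists.

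Of 9 genes chosen for their known roles here, Tle4 and Sox11 were members. Tle4, a Groucho-type corepressor and the driver of the CThPN line, had a fold enrichment of 13.3, 17.1, 16.2, 13.4, 14.8 and 14.8 in the Cux2 lists and 12.2, 11.1, 10.3, 9.67, 10.5 and 8.73 in the Tle4 lists. Sox11, a transcription factor of young neurons, stood at a mean percentile of only 27. Its fold enrichment ran from 5.3 (Cux2 P7) to 11.4 (Tle4 E18.5), with a stage difference of −0.031 ± 0.13 on the log2 scale. Promoter peaks were present in 10 lists at Sox4 and Egr3, in 9 at Apc2 and Syp, in 5 at Bcl11b, in 2 at Cux2 and in none at Nefm.

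Each list was next asked how much of its most significant accessibility lay at constitutive promoters. Presence is fixed by the rule, and rank within a list is not. The share still depends in part on the rule, since a strong peak counts only if every other list holds one there. In the Cux2 lists members made up 82.9%, 87%, 86.8% and 86.2% of the 1000 peaks with the highest −log10 p at E18.5, P1, P3 and P7, 42.3% at P21 and 62.1% at P48. In the Tle4 lists they made up 83%, 84.9%, 85.5% and 87.5% at the early ages, 84.8% at P21 and 78.1% at P48. Both late Cux2 lists lay below every early one, whereas the Tle4 list at P21 lay within the range of the early Tle4 lists. In the Cux2 list at P21, 555 of the 1000 strongest peaks were no promoter peaks, against 48 to 85 in the early Cux2 lists. Averaged over classes, the late share was 18.6 percentage points lower than the early share (exact two-sided permutation test of stage within classes, p = 0.00889, smallest possible 0.00444). The adjusted p over 6 tests of this kind was 0.0533. The means over 6 ages were 74.5% in Cux2 (range 42.3% to 87%) and 84% in Tle4 (range 78.1% to 87.5%), a difference of −9.42 points that could not be told from the spread over ages (exact sign-flip permutation test, p = 0.375, adjusted p = 0.562). The late change was −33.5 points in Cux2 and −3.77 points in Tle4, and this difference did not pass an exact permutation test added after the data were seen (p = 0.0622).

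The median fold enrichment of all peaks inside members was lower late than early in both classes. It was 15.8, 17.1, 15.6, 13.6, 12.4 and 12.7 in the Cux2 lists from E18.5 to P48 and 16, 15.8, 13.7, 13.7, 11.8 and 10.4 in the Tle4 lists. The median of all other peaks lay between 8.57 and 10.3 throughout. Since the median at members differed between lists, single members were compared by relative enrichment. This is the log2 fold enrichment after quantile normalization over the 3175 regions with a peak in every list. A difference below is therefore relative to the other constitutive regions of the same list.

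Stage divided a large minority of members. The limma fit gave 461 members a higher relative enrichment early (17.9%) and 287 late (11.1%) at an adjusted p under 0.05. Of all 3175 regions tested, 15.8% were higher early and 14.4% higher late. The distal constitutive regions went the other way, with 6.88% higher early and 28.7% higher late. Both sets were normalized together, so a relative rise of one lowers the other, and these opposite directions are not independent results. The differences at members were small, with a median of 1.29-fold for those higher early and 1.27-fold for those higher late. Only 65 of the 748 exceeded 1.5-fold and 2 exceeded 2-fold. The rule favours small differences, because a promoter that lacked a peak in any list was left out before the test. For 1831 members (71%) no stage difference was detected. Without the Tle4 P48 list the members higher late numbered 191. The early excess depended on the normalization. With members alone in the fit 395 were higher early and 360 late, and with median centring 378 and 325. From the −log10 p in place of the fold enrichment, 613 were higher early and 399 late, and 58.7% of these calls were shared with the main fit.

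**Figure D3:**
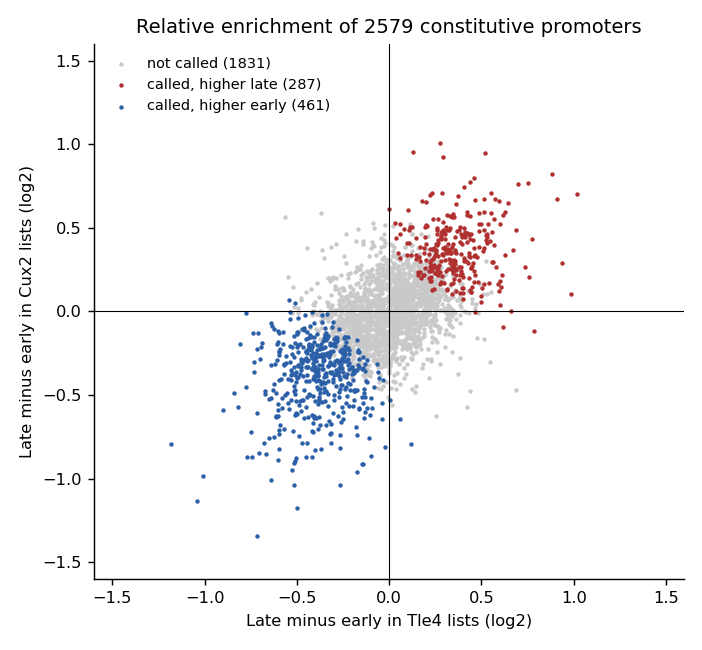
Late minus early difference in relative enrichment (log2) of each of the 2579 members, fitted in the Tle4 lists (x) and the Cux2 lists (y). Blue points (461) were higher early and red points (287) higher late at an adjusted p under 0.05. The stage call averages both axes, so it favours points with the same sign on both.

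The largest early differences were at Cetn4, Tcof1 and Sertad1. The Cetn4 region (chr3:37210954-37212009), named for a centrin and also within 1 kb of start sites of the ciliary gene Bbs12 and of Fgf2, had fold enrichments of 20.5, 21.7, 19.5 and 20 in the early and 7.18 and 8.91 in the late Cux2 lists. In the Tle4 lists it had 22.8, 20.7, 17.7 and 21.3 early and 9.79 and 6.66 late. All late values lay below all early ones, and relative enrichment differed by −1.09 ± 0.091 on the log2 scale (late minus early, SE, adjusted p = 9.16e-08). At Tcof1 on chromosome 18, a nucleolar factor of ribosomal RNA synthesis, early values ran from 16.5 to 23.5 and late values from 6.8 to 11.8 (−1.03 ± 0.092, adjusted p = 1.27e-07). At Sertad1, a regulator of cell-cycle transcription, early values ran from 14.9 to 22.3 and late values from 6.49 to 8.41 (−0.99 ± 0.092, adjusted p = 1.61e-07).

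The other 7 early members named by the rule followed the same order. Cpeb1, which binds polyadenylation elements of mRNA, had early values of 18.8 to 26.2 and late values of 5.71 to 11.7. Cadm2, a synaptic adhesion molecule, had 8.18 to 15.2 early and 4.66 to 7.05 late. Tprgl, a presynaptic protein, had 15.6 to 23.5 early and 8 to 11.6 late. Phf13, a chromatin protein with a PHD finger, had 19 to 26.4 early and 8.98 to 11.9 late. Osbpl2, an oxysterol-binding protein, Agfg2, an ArfGAP-domain protein, and Gm129, a circadian repressor also called Ciart, completed the group. In relative enrichment the early and late lists overlapped only at Gm129 among these 10.

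Late differences were smaller, and some rested on fewer lists. Tmem123 (chr9:7763551-7764801), a membrane protein gene, had 10.3, 12.4, 8.85 and 7.21 in the early and 12.9 and 16.1 in the late Cux2 lists. In the Tle4 lists it had 8.58, 9.64, 10.7 and 11.2 early and 13.7 and 15 late. Its relative enrichment differed by 0.85 ± 0.12 (adjusted p = 2.33e-05), and late values lay above all early ones. Ddx17, an RNA helicase, had 11.4 to 14.4 early and 16.7 and 17.2 late in Cux2, and 8.66 to 11 early and 13.5 and 13.6 late in Tle4 (0.79 ± 0.12, adjusted p = 4.45e-05). Abca7, a lipid transporter, had 7.95 to 10.7 early and 12.2 to 13.7 late (0.73 ± 0.10, adjusted p = 2.09e-05).

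Myo10, a myosin of filopodia, had the largest late difference (0.86 ± 0.15, adjusted p = 0.000236), but its early and late lists overlapped. Its Tle4 value was already 14.4 at P7, against 8 at E18.5. Klhl36 overlapped too, with 22.6 in the Tle4 list at P7 and 9.52 at E18.5. The region of BC016495 and Ostf1 had 19.8 and 15 in the late Cux2 lists but 11.3 and 11.1 in the late Tle4 lists, below its Tle4 value of 17.8 at P7. Its call was lost without the Cux2 P21 list (adjusted p = 0.0645) or the Tle4 P48 list (adjusted p = 0.0518). Late and early lists did not overlap in relative enrichment at 1700025K23Rik, whose region also serves the epsilon-tubulin gene Tube1, at the zinc finger gene Zfp599, at A930018P22Rik and at Adarb2, a brain member of the RNA-editing deaminase family.

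**Figure D4:**
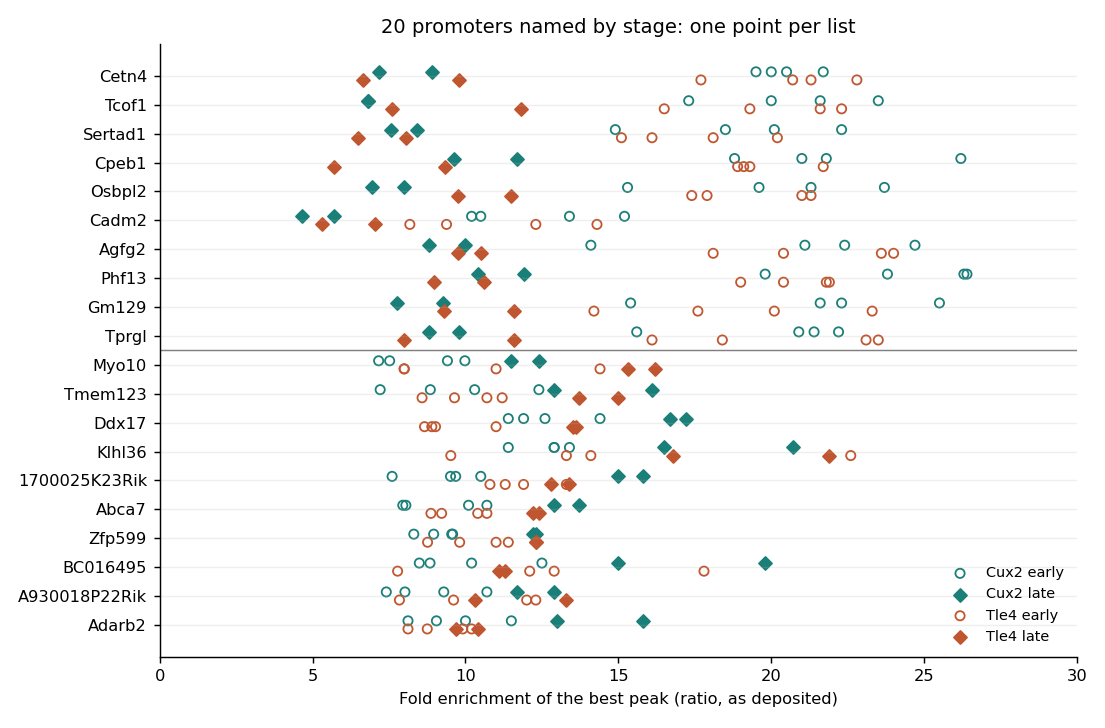
Fold enrichment of the best peak (ratio, as deposited, before normalization) of the 10 members with the largest early and the 10 with the largest late difference, 1 point per list (open circles early, filled diamonds late, Cux2 in green, Tle4 in orange). The late points of the upper 10 promoters lie to the left of their early points, while several of the lower 10, such as Myo10 and Klhl36, overlap.

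The gene lists are given by their stage calls, beside the 15.8% early and 14.4% late of all regions tested, with no test of any list. Of 30 ribosomal protein regions 7 were higher early and 2 late. Rps13 (−0.57 ± 0.10, adjusted p = 0.000419) and Rps24 (0.57 ± 0.14, adjusted p = 0.00348) differed by equal amounts in opposite directions. Of 15 proteasome regions 5 were higher early, led by Psma2 (−0.61 ± 0.088) and Psma5 (−0.51 ± 0.060), and 3 late, led by Psmb6 (0.44 ± 0.11). None of the 10 synthetase regions and none of the 3 ATP synthase regions was called. Of 10 Mediator regions 3 were higher late, with Med11 at 0.51 ± 0.11, and 1 early, Med24 at −0.46 ± 0.091. Of 11 initiation factor regions 3 were higher early, with Eif5 at −0.49 ± 0.083, and 2 late. Of 9 chaperone regions 2 were higher early, Hsph1 and Cct2, and none late.

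The groups with few members gave single calls. Complex I had 1 of 10 called, Ndufb5, higher late, and the 6 splicing factor regions had 1 called in each direction, Snrpd2 late and Srsf3 early. Polr2i was higher early. Both synaptic vesicle promoters that were called were higher early, Rab3a (−0.70 ± 0.10, adjusted p = 3.12e-05) and Syt1 (−0.48 ± 0.13, adjusted p = 0.00911), and so was Grm3 (−0.33 ± 0.11, adjusted p = 0.0272). Among immediate early genes Egr1 was higher early (−0.37 ± 0.10) and Jun late (0.32 ± 0.12). None of the 3 regions of the clock gene list was called, but Gm129, the circadian repressor named above as higher early, was not counted in that list.

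Motif content was set beside the stage calls as a description. Of the 461 members higher early, 12.1% held an ETS site, against 2.44% of the 287 higher late and 6.34% of those not called. Put the other way, of the 179 members with an ETS site 56 (31.3%) were higher early and 7 (3.91%) higher late, and their median stage difference was −0.15 against −0.011 for members without one. It was −0.12 in the Cux2 lists and −0.13 in the Tle4 lists. The E-box CACGTG (11.9% of early and 5.57% of late members) and the NRF1 site (5.21% and 1.74%) leaned the same way. A CCAAT box was held by 70.1% of members higher early, 57.8% of those higher late and 70.2% of those not called. Median GC content was 57.8%, 57.1% and 57.5% in these sets.

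Neuron class separated far fewer members. The fit called 12 members higher in Cux2 (0.465%) and 14 higher in Tle4 (0.543%), against 0.724% and 0.567% of all 3175 regions. At an unadjusted p under 0.05 there were 377 members. The counts rested on single lists. Without the Cux2 P21, Tle4 P21 or Tle4 P48 list, 6, 5 and 7 members were higher in Cux2 and 7, 3 and 5 in Tle4, and without the Tle4 P1, P3 or P7 list 4, 6 and 9 were higher in Tle4. From the −log10 p in place of the fold enrichment, 21 and 31 were called. With age as a block, which pairs the classes by age, 18 and 19 were called, and 17 of the 26 calls were among them. C230081A13Rik (adjusted p = 0.08), 5430416N02Rik (0.0575), Cycs (0.0995), Frmd5 (0.0544) and Tmtc2 (0.175) lost their calls under the block. The peak identifiers also differ, since a version number appears in those for Cux2 and not in those for Tle4, so class and a difference in processing cannot be told apart.

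Rps6kl1, a kinase-like gene, differed most toward Cux2. Its fold enrichment was 17.4, 21.8, 16.5, 14.4, 11.7 and 13.7 in the Cux2 lists and 10.1, 10.5, 10.2, 10.2, 8.96 and 6.44 in the Tle4 lists. It was higher in Cux2 at all 6 ages, and relative enrichment did not overlap between classes (0.66 ± 0.10, adjusted p = 0.000731). The region of Jup, the junction protein plakoglobin, had 11.7 to 20.3 in Cux2 and 6.62 to 10.4 in Tle4 lists (0.65 ± 0.092, adjusted p = 0.000731). That call was lost when the −log10 p was used (adjusted p = 0.204). Slc25a29, a mitochondrial amino acid carrier, the X-linked actin bundler Pls3, 5430416N02Rik and the region shared by Med22 and Rpl7a were also higher in Cux2 with no overlap in relative enrichment. The call at Pls3 was lost without Cux2 P21 (adjusted p = 0.0837) or Tle4 P48, at 5430416N02Rik without Tle4 P21 (adjusted p = 0.0725), and at Med22 without Cux2 P48 or Tle4 P21 (adjusted p = 0.0814). C230081A13Rik, A830010M20Rik, Klhl25 and Tubgcp5 were called with overlapping classes, and each lost its call without the Cux2 P21, the Tle4 P21 or the Tle4 P48 list, among others, with adjusted p up to 0.218.

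The Tle4 promoter itself was among the members higher in Cux2 lists. The difference was 0.41 ± 0.091 (adjusted p = 0.0209) and held its sign at all 6 ages, and the fold enrichments printed above did not overlap between classes. After normalization they did, with the lowest Cux2 value at 11.6 and the highest Tle4 value at 12. Only the Tle4 line carries the 2A-CreERT2 insertion at this gene. Whether the insertion touches the measurement was not tested, and the call was lost without the Cux2 P21 list (adjusted p = 0.111), the Cux2 P48 list, the Tle4 P21 list or the Tle4 P48 list.

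Toward Tle4 the region of Heatr2, a dynein assembly factor, and Prkar1b, a regulatory subunit of protein kinase A, differed most. Its fold enrichment was 13.2, 10.1, 8.97, 7.73, 7.06 and 6.53 in the Cux2 lists and 14.7, 14.5, 11.6, 12.7, 10.1 and 10.2 in the Tle4 lists (−0.61 ± 0.10, adjusted p = 0.00436, higher in Tle4 at all 6 ages). After normalization the classes still overlapped there, with the highest Cux2 value at 11.5 and the lowest Tle4 value at 11.3. Psmb8, an immunoproteasome subunit, had 10.9 to 14.7 in Cux2 and 13.3 to 18.2 in Tle4 lists (−0.50 ± 0.092, adjusted p = 0.00787). Nlk, a kinase of Wnt and Notch signalling, had 6.74 to 15.4 and 10.7 to 18.1 (−0.50 ± 0.10, adjusted p = 0.0126). In relative enrichment the classes did not overlap at Psmb8 and Nlk. The call was lost at Psmb8 without Tle4 P48 (adjusted p = 0.0721) and at Nlk without Cux2 P48 (adjusted p = 0.0821), Tle4 P21 or Tle4 P48. Ifngr1, Cdc25a, Tarsl2, Cycs, BC048355, Frmd5 and Tmtc2 were called with differences from −0.49 to −0.40, and their classes overlapped. Each of these 7 lost its call without the Cux2 P21 list, among others, with adjusted p up to 0.239 over the lists left out.

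Few members changed with stage differently in the classes. The test of the class-by-stage difference called 2 members whose late minus early difference was more positive in Cux2 and 3 where it was more positive in Tle4, against 0.157% of all regions in either direction. At an unadjusted p under 0.05 there were 238. The Mafa promoter, of a MAF-family transcription factor, had 20.2, 21.4, 16.2, 16, 10.4 and 11.7 in the Cux2 lists and 15.3, 12.2, 12.3, 16.4, 17.1 and 18.4 in the Tle4 lists. It was thus lower late in Cux2 and higher late in Tle4 (difference of the changes −1.16, adjusted p = 0.0187). Dgkb, a diacylglycerol kinase of the brain, moved the opposite way, with 8.32, 7.82, 7.88, 6.13, 9.86 and 9.54 in Cux2 and 12.4, 12, 11.2, 9.89, 8 and 6.95 in Tle4 (0.96, adjusted p = 0.0205). Both calls were lost without any 1 of the 4 late lists, with adjusted p from 0.0505 to 0.0906 at Mafa and from 0.0887 to 0.133 at Dgkb.

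Peak width and summit position at members passed no adjusted test for stage or class. Median widths were 719 ± 56.1 bp in early and 692 ± 111 bp in late Cux2 lists (SD over ages), and 764 ± 133 and 762 ± 170 bp in Tle4 lists (stage, exact permutation p = 0.836, adjusted p = 0.836). Tle4 peaks were wider at 5 of 6 ages, but the mean difference of −53.5 bp (Cux2 minus Tle4) did not pass the test (exact permutation p = 0.156, adjusted p = 0.312). Divided by the median width of the other peaks of the same list, members were relatively wider in Cux2 than in Tle4 lists, by 0.169 (p = 0.0312 by the same exact test, the smallest it can give). The median distance from summit to TSS lay between 73 and 79 bp in all 12 lists (stage, exact permutation p = 0.111; class, p = 0.625).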

How the data were processed

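The study's methods state that the authors aligned the reads of 24 libraries with Bowtie2 at default settings to mm9, filtered duplicates by Picard and combined MACS2 with an irreproducible discovery rate limit over 2 biological replicates. Whether read ends were shifted for the transposase is not given in the sources used here. The deposited files are 12 peak lists, 1 for each class and age. Their fold enrichment at the summit (a ratio), −log10 p and −log10 q are those of the authors' peak caller. With neither counts nor replicate values in them, depth per library and replicate error are unknown here, and the tests measure the spread between lists of different ages.

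Coordinates matched NCBIM37 with GENCODE vM1 (95458 TSSs). The 60 peaks off chromosomes 1 to 19, X and Y were left out. The best peak of a region stood for it in each list. Relative enrichment was fitted with limma 3.58.1 (trend, robust) in R 4.3.3 over the 3175 regions in all lists, with 4 groups (class by stage), and p-values were adjusted by Benjamini-Hochberg over them. The fit was tested on simulated data. List values were compared by two-sided exact permutation of stage labels within classes or of class labels within ages, adjusted over 6 tests. In Python 3.11.15, 11 motifs were searched on both strands as exact letters in 300-bp windows at the median summit. Printed sequences overlap no annotated exon and hold no repeated 50-base word. A region was named by the nearest coding TSS. Named were the 8 members with the highest mean percentile, the 10 with the largest called difference per direction for stage (same sign in both classes) and class (same sign at 5 or more of 6 ages), up to 5 per direction for class by stage, the 3 nearest each threshold, 9 genes by name, and, in each gene list, members that passed a test or ranked highest. A few of these are not reported here. The members, gene lists, motifs and tests were chosen with earlier results of these data known. Alternatives covered normalization, the −log10 p, GC content, repeated sequence, single lists, P7, age as a block, distance, annotation and list length.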

Additional observations from a re-analysis of the deposited data

Results flagged for a closer look

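At 5 members the late change differed between the neuron classes by the limma test of that difference. The log2 difference (Cux2 change minus Tle4 change) was 1.13 at 1700061E18Rik (adjusted p = 0.0205), 0.96 at Dgkb (adjusted p = 0.0205), −1.16 at Mafa (adjusted p = 0.0187), −0.90 at 2410004N09Rik (adjusted p = 0.0403) and −0.79 at Ing4 (adjusted p = 0.0456). At 1700061E18Rik fold enrichment was 8.48 to 10.5 early and 12.7 and 11.6 late in the Cux2 lists, and 12.5 to 14 early and 9.09 and 6.09 late in the Tle4 lists. At 2410004N09Rik it was 8.69 to 11.3 early and 8.16 and 8.24 late in Cux2, and 8.22 to 8.9 early and 12.4 and 10.5 late in Tle4. At Ing4, a subunit of a histone acetyltransferase complex, it was 15.4 to 22 early and 8.96 and 6.88 late in Cux2, and 16.2 to 19.7 early and 11.8 and 12 late in Tle4, so fold enrichment was lower late in both classes. All 5 calls were lost when any 1 of the 4 late lists (Cux2 P21, Cux2 P48, Tle4 P21 or Tle4 P48) was left out, with the remaining late list assumed to vary like the other groups.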

How the results depend on the processing

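No paired analysis was possible because each list pools both replicate numbers. That limit concerns pairing by replicate number only. The classes share ages and were paired by age in the class tests of list values and in a fit with age as a block. In that fit 18 members were higher in Cux2 and 19 in Tle4, against 12 and 14 in the main fit, which did not pair the classes. The number of constitutive promoters fell to 1149 with every list cut to the shortest and ran from 2578 to 3248 with 1 list left out (3248 without Tle4 P21). Members higher late numbered 191 to 326 with 1 list left out (191 without Tle4 P48) and those higher early 347 to 513. From the −log10 p, 21 members were higher in Cux2 and 31 in Tle4, and with 1 list left out 5 to 18 and 3 to 19. For the class-by-stage difference, members whose late minus early difference was more positive in Cux2 and in Tle4 numbered 0 and 1 with median centring and 8 and 6 from the −log10 p. Without P7 there were 12 in the Tle4 direction, and with 1 list left out 0 to 2 and 0 to 5. Relative to the other peaks, the class difference in width turned to 0.169. The stage difference in summit distance was 1.31 to 3.81 bp with 1 list left out, and passed the unadjusted test without Tle4 P21 (3.81). The causes were not tested. Of the values recomputed for named members, 149 lost and 3 gained a call, and none of these changed sign. Peak lists without depth or replicate values limit the precision of every value.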
